A study of Mus musculus with 6 samples.

Results

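The 36 genes described here are type I interferon-stimulated genes, that is, genes whose transcription rises when a cell is exposed to interferon-alpha or interferon-beta. They were found by their symbols, and 35 of the 36 had a row among the 31053 genes of the count matrices; Mx2 was not analysed here. The cells came from mouse mitral valves, which were dissociated with collagenase 2 and DNase, cleared of red cells and sorted as live single cells before 3′ droplet sequencing (10x Genomics). K/B.g7 mice, labelled inflamed, carry the KRN T-cell receptor transgene on a background with the MHC class II molecule I-Ag7 and develop autoantibody-driven arthritis and valve inflammation. B.g7 mice, labelled control, have the same class II molecule without the transgene. Each genotype was sampled at 3, 8 and 25 weeks of age with 1 library per genotype and age, 6 libraries in all, and neither the number of animals pooled in a library nor their sex is given in the sources used here.

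Type I interferons bind a receptor made of IFNAR1 and IFNAR2, which activates the kinases JAK1 and TYK2. These switch on the transcription factor complex ISGF3, which contains STAT2 and IRF9 and binds the interferon-stimulated response element (ISRE) in the promoters of the induced genes. Interferon-gamma uses another receptor and acts mainly through another promoter sequence, the gamma-activated site (GAS), and the induced gene sets overlap in part. The products of the 36 genes include parts of the pathway itself (Stat2, Irf9, Irf7, Usp18), sensors of foreign RNA or DNA, enzymes and binding proteins that stop viral translation or destroy RNA, and other antiviral proteins.

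The genes were first compared by promoter sequence, a property that the expression data did not define. RefSeq windows of 300 bases, 250 before to 50 after the start of transcription (GRCm38.p6), were matched for 26 of the 36 genes. The ISRE core was searched as GAAA, any 2 bases, GAAA, which reads TTTC, any 2 bases, TTTC on the other strand, and overlapping matches were counted. It was present in 15 of the 26 genes (57.7%), against 3.99% of the 27025 genes with RefSeq windows, and 6 of the 26 held at least 2 matches. The GAS sequence (TTC, any 3 bases, GAA) was present in 6 of the 26 (23.1%) against 9.55% of all genes. A match is a stretch of letters and not a measured binding site. Since the genes were listed as interferon-stimulated, the ISRE share describes the list and is not a result of these cells. The 150 bases before the start are shown for 4 of the 6 genes with the smallest p-values between 8 and 3 weeks in the fibroblast comparison described later, so that the shared letters can be seen. The stretches of the other 2, Mndal and Ifi44, overlap annotated first exons over a longer run and are left out. GENCODE places the start of Ifit1 a few bases before the RefSeq start, and the Ifi203 stretch lies within the annotated gene, whose other RefSeq window held 0 matches. Those shown run 5′ to 3′ on the gene's strand, and capitals mark the ISRE core.
Isg15: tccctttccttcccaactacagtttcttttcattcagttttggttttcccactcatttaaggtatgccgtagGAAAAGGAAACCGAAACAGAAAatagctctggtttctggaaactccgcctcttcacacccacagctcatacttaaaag
Ifit1: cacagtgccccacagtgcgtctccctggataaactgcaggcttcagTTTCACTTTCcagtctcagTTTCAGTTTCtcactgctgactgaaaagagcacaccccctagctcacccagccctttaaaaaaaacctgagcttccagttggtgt
Ifi203: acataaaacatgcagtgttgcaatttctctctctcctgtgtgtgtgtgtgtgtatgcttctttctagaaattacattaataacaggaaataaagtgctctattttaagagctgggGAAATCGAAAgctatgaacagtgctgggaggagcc
Trim30a: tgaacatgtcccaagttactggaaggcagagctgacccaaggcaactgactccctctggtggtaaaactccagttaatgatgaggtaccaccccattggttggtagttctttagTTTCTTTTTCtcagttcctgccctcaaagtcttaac

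The stretches lie at chr4:156200819-156200968 (minus strand, Isg15), chr19:34640739-34640888 (plus strand, Ifit1), chr1:173942493-173942642 (minus strand, Ifi203) and chr7:104465194-104465343 (minus strand, Trim30a). Isg15 had 3 overlapping matches in 1 run, of which the first began 78 bases before the start. Ifit1 had 2 separate matches, of which the first began 104 bases before the start. Mndal and Ifi203, neighbouring genes of the PYHIN family of nucleic acid sensors, shared an identical run of 139 bases across their windows, which includes the match that begins 36 and 35 bases before their starts. The Ifi44 window held no match to these letters. The 35 genes lie on 15 chromosomes, and several are neighbours: Ifi204 (chr1:173747293-173766943), Mndal (chr1:173849126-173942491) and Ifi203 (chr1:173920407-173942672) on chromosome 1, 4 Ifit genes on chromosome 19 and 4 Oas genes on chromosome 5 (GENCODE annotation of GRCm38). Mndal and Ifi203 overlap on the same strand in this annotation, and Ifit3 and Ifit3b shared a promoter run of 169 bases, so the split of UMIs between the members of each pair is uncertain.

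After filters and removal of predicted doublets, 47687 cells were kept, with a median of 2865 to 5612 UMIs (unique molecular identifiers, each standing for 1 captured RNA molecule) per cell in a library and 15196750 to 69152541 UMIs per deposited matrix. Cell classes were rebuilt by clustering without the 36 genes or the other interferon genes, and are called by markers: fibroblast-like (37471 cells), endothelial-like (3004), mural-like (2029), macrophage-like (677) and T cell-like (680) are those tested. Levels are given in CPM, the UMIs of a gene scaled to the same total of UMIs for each class and library; each molecule is counted once at its 3′ end, so no scaling by gene length was made. The libraries mixed cells with Xist and cells with Y-linked transcripts in unequal shares, most unequally at 8 weeks in B.g7 (4604 against 192 cells). A fibroblast-like cluster led by Mmp3 came almost wholly from 1 library (437 of 458 kept cells, K/B.g7 at 8 weeks). Of 58004 distinct barcodes, 346 occurred in more than 1 library. Since the labels give 1 library per genotype and age, p-values measure the spread between these 6 libraries only.

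In fibroblast-like cells the summed level of the 35 genes was lowest at 3 weeks and highest at 8 weeks in both genotypes, and at 8 weeks it was higher in K/B.g7 than in B.g7. The sum was 636, 3073 and 1922 CPM in K/B.g7 (3, 8 and 25 weeks) and 913, 1746 and 1684 CPM in B.g7. A single gene held much of it: Ifi27l2a, an interferon-induced gene on chromosome 12, gave 32.5% to 60.9% of the sum depending on the library. Without Ifi27l2a the sum was 429, 1283 and 762 CPM in K/B.g7 (3, 8 and 25 weeks) and 434, 807 and 659 CPM in B.g7, again lowest at 3 and highest at 8 weeks in both genotypes. In B.g7 cells with Xist alone, however, the sum of the 35 genes was higher at 25 than at 8 weeks (1891 against 1719.8 CPM).

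Among single genes, Ifi27l2a (chr12:103442167-103443680) was the most abundant, with 207, 1790.0 and 1159 CPM in the K/B.g7 libraries of 3, 8 and 25 weeks and 478, 939 and 1025 CPM in the B.g7 libraries. Bst2, which encodes tetherin, a protein that holds budding virus particles at the cell surface, had 87.0, 263 and 99.9 CPM in K/B.g7 and 72.0, 139 and 112 CPM in B.g7. For both genes the 8-week K/B.g7 library was the highest of the 6. The 3 PYHIN sensor genes followed. Ifi203 had 23.2, 107 and 76.4 CPM in K/B.g7 and 17.6, 81.3 and 60.9 CPM in B.g7. Mndal had 14.6, 86.5 and 74.0 CPM in K/B.g7 and 10.9, 60.0 and 35.2 CPM in B.g7. Ifi204 had 20.3, 82.3 and 56.7 CPM in K/B.g7 and 21.9, 44.2 and 50.3 CPM in B.g7. In each of these 3 genes both 8-week libraries lay above both 3-week libraries. The share of all genes whose libraries separate by age in this way was not counted, here or for the genes named below. Ifi35 differed little between libraries, at 44.7, 54.1 and 35.9 CPM in K/B.g7 and 45.4, 44.3 and 47.2 CPM in B.g7. Samd9l, whose product blocks translation of viral RNA, had 29.4, 80.3 and 60.3 CPM in K/B.g7 and 24.9, 34.2 and 34.1 CPM in B.g7, with the 8- and 25-week K/B.g7 libraries above the other 4. Xaf1, whose product binds an inhibitor of cell death, had 21.3, 51.7 and 44.4 CPM in K/B.g7 and 31.0, 41.8 and 34.3 CPM in B.g7. Irf9, the DNA-binding part of ISGF3, had 19.8, 36.8 and 24.9 CPM in K/B.g7 and 28.0, 31.7 and 32.3 CPM in B.g7. The 8-week K/B.g7 library was the highest of the 6 in both. Isg20, an RNA exonuclease gene, had 21.9, 36.6 and 24.9 CPM in K/B.g7 and 19.6, 32.4 and 25.3 CPM in B.g7. Ifit3 had 15.8, 47.4 and 21.4 CPM in K/B.g7 and 14.1, 24.5 and 20.7 CPM in B.g7. Isg15, whose ubiquitin-like product is attached to other proteins, had 8.95, 49.0 and 28.2 CPM in K/B.g7 and 4.98, 26.4 and 19.7 CPM in B.g7. In these 3 genes too, both 8-week libraries lay above both 3-week libraries.

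**Figure D1:**
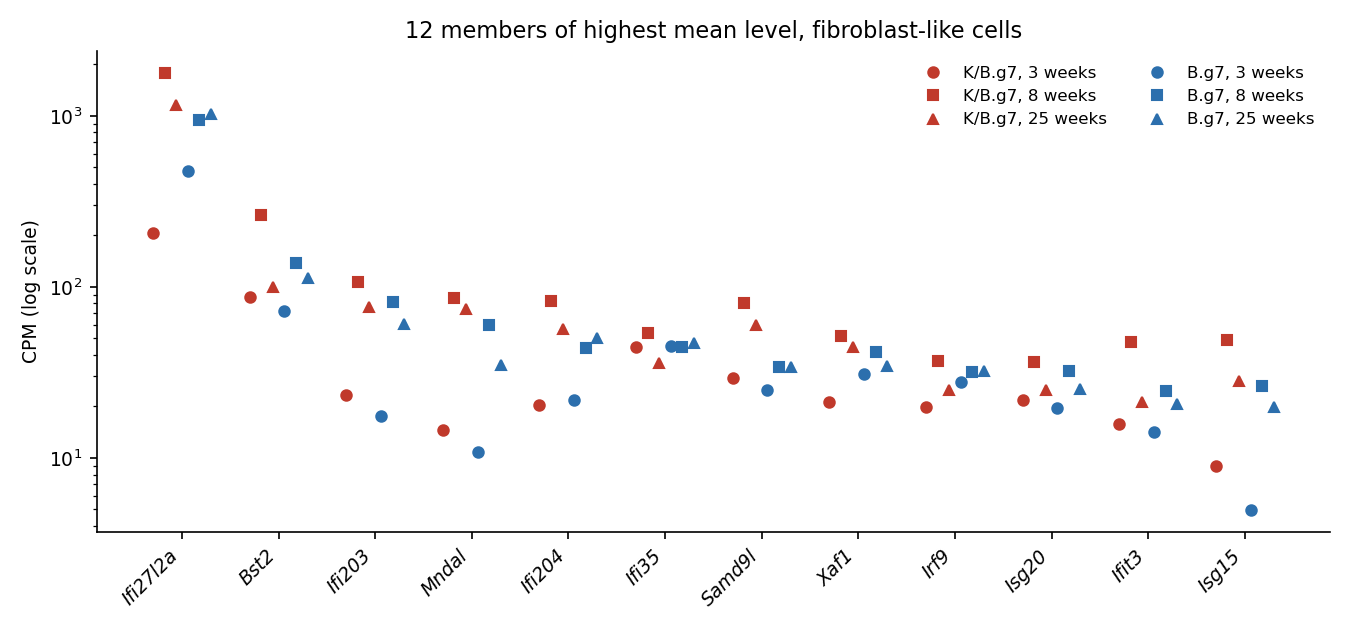
Level of the 12 most abundant genes in fibroblast-like cells, in CPM on a log scale, with 1 point per library (colour for the genotype, marker shape for the age). Ifi27l2a reaches 1790.0 CPM in the K/B.g7 library of 8 weeks, and most genes have their lowest points at 3 weeks, while Ifi35 stays between 35.9 and 54.1 CPM.

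Between 3 and 8 weeks, 23 of the 33 genes tested in fibroblast-like cells rose and 0 fell, at an adjusted p under 0.05 (edgeR quasi-likelihood test on summed UMIs, genotype kept in the model, Benjamini-Hochberg over 14384 genes). Of all genes tested, 3.14% rose and 2.26% fell. The median log2 difference of the 33 was 1.45 against 0.01 over all genes, and 32 of the 33 lay above 0. Mx1 and Oas3 did not pass the filter on low counts. Ifi44, Oas1a and Oas2 passed it although they had at most 5 UMIs at 3 weeks; without these, 21 of 30 rose.

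The 4 genes of signalling and feedback had the lowest median log2 difference of the role groups, 1.06. Irf7, a transcription factor that amplifies interferon production, was the 1 of 4 that rose. Its level was 10.9, 26.3 and 10.7 CPM in K/B.g7 and 8.95, 21.7 and 15.3 CPM in B.g7, a log2 difference of 1.30 ± 0.26 (SE; adjusted p = 0.0281, edgeR). Stat2 (0.82 ± 0.20, adjusted p = 0.054), Usp18 (1.48 ± 0.38, adjusted p = 0.0614) and Irf9 (0.60 ± 0.21, adjusted p = 0.142) did not pass. Their summed level was 44.6, 96.1 and 56.1 CPM in K/B.g7 and 53.0, 75.5 and 66.6 CPM in B.g7.

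Of the 7 sensors, 5 rose: Mndal, Ifi203, Ifi204, Ifih1 and Zbp1. Mndal had the largest log2 difference of the group, 2.57 ± 0.22 (adjusted p = 0.00155), and Ifi203 rose by 2.25 ± 0.20 (adjusted p = 0.00155) on the same scale. Zbp1, a sensor of nucleic acids in the Z conformation, had 3.18, 27.3 and 3.79 CPM in K/B.g7 and 1.85, 4.46 and 3.60 CPM in B.g7, so that 1 library stood far above the other 5. Its log2 difference was 2.47 ± 0.56 (adjusted p = 0.0424). Ifih1, which encodes the RNA sensor MDA5, had 6.07, 22.0 and 15.5 CPM in K/B.g7 and 9.78, 15.03 and 11.7 CPM in B.g7. Ddx58 (RIG-I) and Dhx58 (LGP2) did not pass, with log2 differences of 0.59 ± 0.22 and 1.23 ± 0.31. The summed level of the sensors was 84.0, 359 and 256 CPM in K/B.g7 and 82.6, 229 and 183 CPM in B.g7.

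Of the 10 tested effectors that bind or degrade RNA or stop translation, 7 rose, namely Ifit1, Ifit3, Ifit3b, Oasl2, Oas1a, Isg20 and Samd9l. Ifit1, which binds viral RNA that lacks the host cap methylation, had 4.58, 26.6 and 12.5 CPM in K/B.g7 and 2.86, 10.6 and 8.84 CPM in B.g7, a log2 difference of 2.30 ± 0.27 (adjusted p = 0.00469). Its neighbour Ifit2 stayed within 7.71 to 13.8 CPM and did not pass (0.60 ± 0.22, adjusted p = 0.147). Eif2ak2, the gene of the RNA-activated kinase PKR, was the only 1 of the 33 genes with a difference below 0 (-0.32 ± 0.24, adjusted p = 0.454). Oas1a, which makes the oligoadenylates that switch on RNase L, had 2 UMIs at 3 weeks and 145 at 8 weeks, a ratio of CPM of 46.6 with a 95% counting interval from 12.7 to 388. Oas3 had 1 UMI in fibroblast-like cells of all libraries.

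Of the 7 other antiviral effectors tested, 6 rose, all but Ifi35 (0.17 ± 0.22, adjusted p = 0.671). Isg15 (chr4:156199424-156200818) rose by 2.46 ± 0.21 on the log2 scale (adjusted p = 0.00155). Trim30a (chr7:104409025-104465193), a ubiquitin ligase gene of the TRIM family, had 6.42, 34.5 and 17.2 CPM in K/B.g7 and 7.29, 25.0 and 12.9 CPM in B.g7, a log2 difference of 2.16 ± 0.21 (adjusted p = 0.00224). Herc6, the main ligase for Isg15 in mice, rose by 0.95 ± 0.21 and Bst2 by 1.34 ± 0.28. Rsad2, which encodes viperin, and its neighbour Cmpk2 rose by 2.42 ± 0.43 and 1.18 ± 0.26.

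Of the 5 other induced genes, 4 rose: Ifi44, Rtp4, Parp14 and Ifi27l2a. Ifi44 (chr3:151730922-151749960) was nearly absent at 3 weeks, with 0.149, 6.45 and 0.559 CPM in K/B.g7 and 0, 2.38 and 0.349 CPM in B.g7. Its 3 UMIs at 3 weeks against 242 at 8 weeks gave a ratio of CPM of 51.8 with a 95% counting interval from 17.5 to 253 (adjusted p = 0.00434). Rtp4 had 6.57, 28.5 and 12.2 CPM in K/B.g7 and 7.48, 21.1 and 15.9 CPM in B.g7, and Parp14, an ADP-ribosyltransferase gene, had 7.16, 35.1 and 16.5 CPM in K/B.g7 and 8.21, 20.02 and 15.1 CPM in B.g7; both 8-week libraries lay above the other 4 in each. Ifi27l2a rose by 2.07 ± 0.45 (adjusted p = 0.0385) on the log2 scale.

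Among the fibroblast-like clusters with enough cells in every library, the order of ages was the same in most. In each of the 8 clusters with at least 20 cells in every library the summed level was highest at 8 weeks in K/B.g7, and in 7 of 8 it was so in B.g7; single clusters had between 2 and 17 of the genes called higher at 8 than at 3 weeks, and 0 called lower. Of all 12 fibroblast-like clusters, those numbered 4, 8, 14 and 18 had under 20 cells in at least 1 library. In B.g7, clusters 8 and 14 were highest at 25 weeks (2153 and 2198 CPM, against 921 and 1998 CPM at 8 weeks). Cluster 4 was highest at 8 weeks there. Cluster 8 held 1802 of 4413 K/B.g7 cells at 3 weeks and 14 of 6705 at 8 weeks, so the pooled ages differ in their mix of clusters. The part of this mix in the rise was not tested. Cells with Xist alone gave 21 and cells with Y-linked transcripts alone gave 19 genes called higher. Without the 25-week libraries 26 were called. The share of all genes called in the fits of single clusters, subsets and left-out libraries is not given here, so nothing is read from their counts. By genotype, where each age has 1 library and no test is possible, all 34 genes with enough UMIs were higher at 8 than at 3 weeks in K/B.g7 (52.9% of all genes were), with a median log2 ratio of 1.94, and 29 of 31 in B.g7 (40.9% of all genes), with a median of 0.94.

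From 8 to 25 weeks the fitted levels were lower again, but no gene passed the test. All 33 fitted differences lay below 0, with a median of -0.65 against -0.00 over all genes, and 21 had an unadjusted p under 0.05 (6.61% of all genes did). Of all genes tested, 0.0348% were called higher and 0.0626% lower. Ifi44 was nearest, at -3.22 ± 0.45 (adjusted p = 0.0595), followed by Trim30a at -1.02 ± 0.19 (adjusted p = 0.139), and by Rtp4 (-0.87 ± 0.23), Irf7 (-0.92 ± 0.25) and Ifit3b (-0.80 ± 0.23). Ifit3b, the near copy of Ifit3, had 3.63, 11.6 and 7.29 CPM in K/B.g7 and 4.43, 9.56 and 5.35 CPM in B.g7. DESeq2 called 3 genes lower, and cells with Y-linked transcripts alone gave 6, without the share of all genes called in those fits. By genotype, with 1 library per age and no test, all 34 genes with enough UMIs were lower at 25 than at 8 weeks in K/B.g7. Their median log2 ratio was -0.72 and the summed ratio 0.625 (55.1% of all genes were higher). In B.g7 28 of 33 were lower and 5 higher, with a median of -0.36 and a summed ratio of 0.965 (53.8% of all genes were higher). The 2 age differences share the 8-week libraries. Over all 34 genes with more than 1 UMI, 29 were highest at 8 weeks in both genotypes (12% of all genes were) and 29 were lowest at 3 weeks in both (22.3% of all genes).

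**Figure D2:**
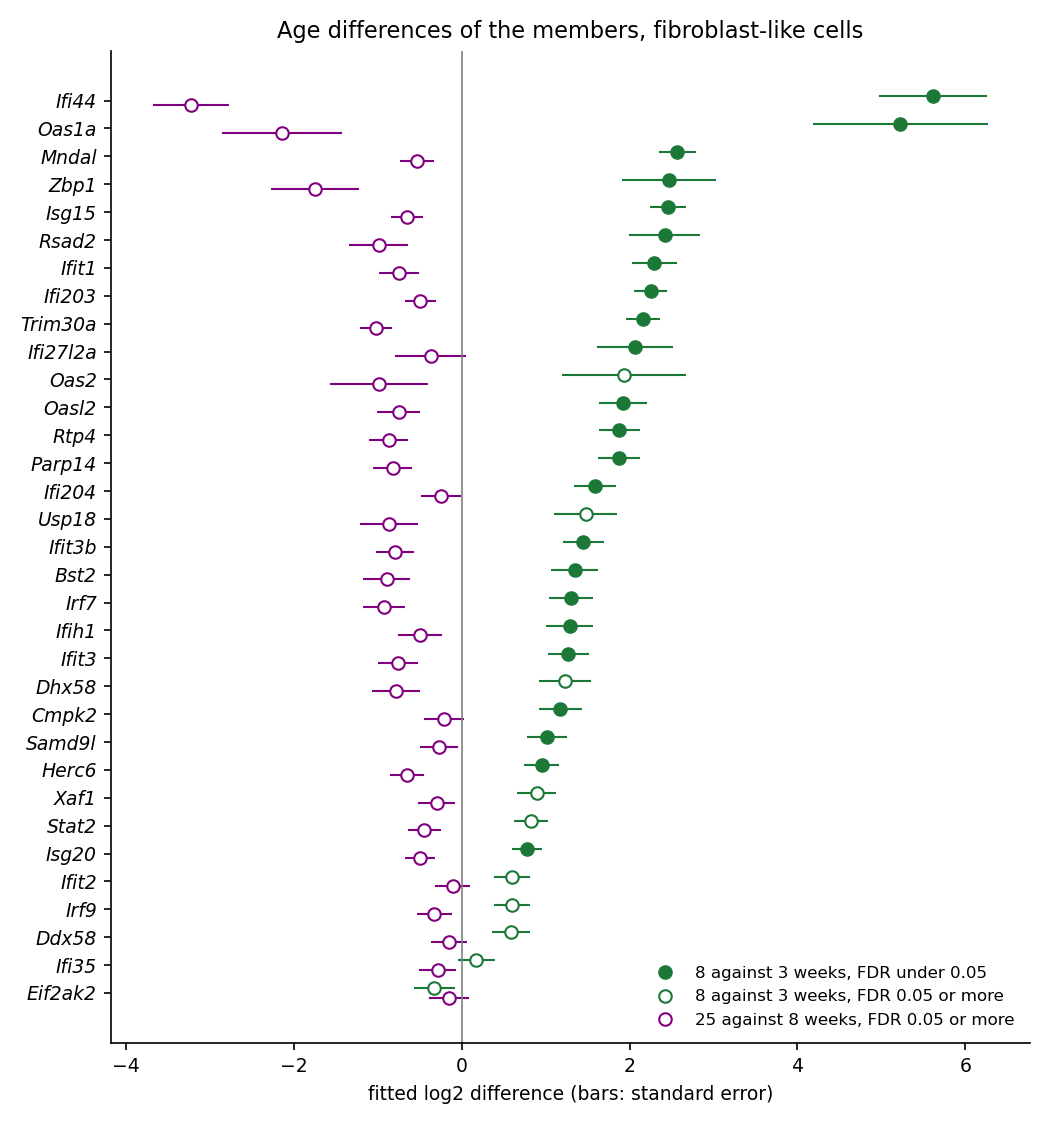
Fitted log2 differences of the 33 tested genes in fibroblast-like cells, 8 against 3 weeks and 25 against 8 weeks, with standard errors as bars and filled points for an adjusted p under 0.05. The 23 filled points all belong to 8 against 3 weeks, from Isg20 at 0.78 to Ifi44 at 5.61, and every 25 against 8 weeks point lies left of 0.

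The genotypes did not separate by the test over the 3 ages. In fibroblast-like cells 0 of 33 genes passed (edgeR, age as a block; 0% of all genes passed in either direction), DESeq2 called 0 as well, and 7 had an unadjusted p under 0.05. At that threshold 6.65% of all genes passed. All 7 were higher in K/B.g7: Isg15, Samd9l, Ifit1, Mndal, Rsad2, Ifi44 and Zbp1. Isg15 had the smallest p, with a log2 difference of 0.66 ± 0.16 (adjusted p = 0.411), then Samd9l with 0.70 ± 0.19 and Ifit1 with 0.76 ± 0.21 (both adjusted p = 0.46), Mndal with 0.61 ± 0.17 (adjusted p = 0.477) and Rsad2 with 1.0 ± 0.32 (adjusted p = 0.569). Rsad2 had 0.696, 4.15 and 1.87 CPM in K/B.g7 and 0.369, 1.60 and 0.994 CPM in B.g7, and its 8-week K/B.g7 library was the highest of the 6. Irf9 was the gene of smallest p among those lower in K/B.g7 (-0.29 ± 0.17, adjusted p = 0.803). With no filter 4 genes were called higher. Fibroblast-like clusters 0, 1, 2 and 3 alone gave 1 called gene each. How many of all genes were called with no filter or in these clusters is not given here.

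The ratio between genotypes varied with age, which the design cannot test because each genotype has 1 library at each age. At 3 weeks 10 of the 29 genes with enough UMIs were higher in K/B.g7 (44.6% of all genes were), with a median log2 ratio of -0.19 against -0.04 over all genes. At 8 weeks all 34 were higher (60.3% of all genes), with a median of 0.56 against 0.09 over all genes. At 25 weeks 25 of 34 were higher (59.9% of all genes), with a median of 0.18 against 0.12. Zbp1, Mx1 and Oas1a had the highest 8-week log2 ratios, 2.61, 2.44 and 2.40, and Dhx58 the lowest, 0.11. Of the 29 genes measured at every age, 7 were higher in K/B.g7 at all 3 ages and 0 were lower at all 3. The same count was not made over all genes, so nothing is read from it. Ifi27l2a had a log2 ratio of -1.21 at 3 weeks, and without it the summed ratio of K/B.g7 over B.g7 was 0.987 instead of 0.696.

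**Figure D3:**
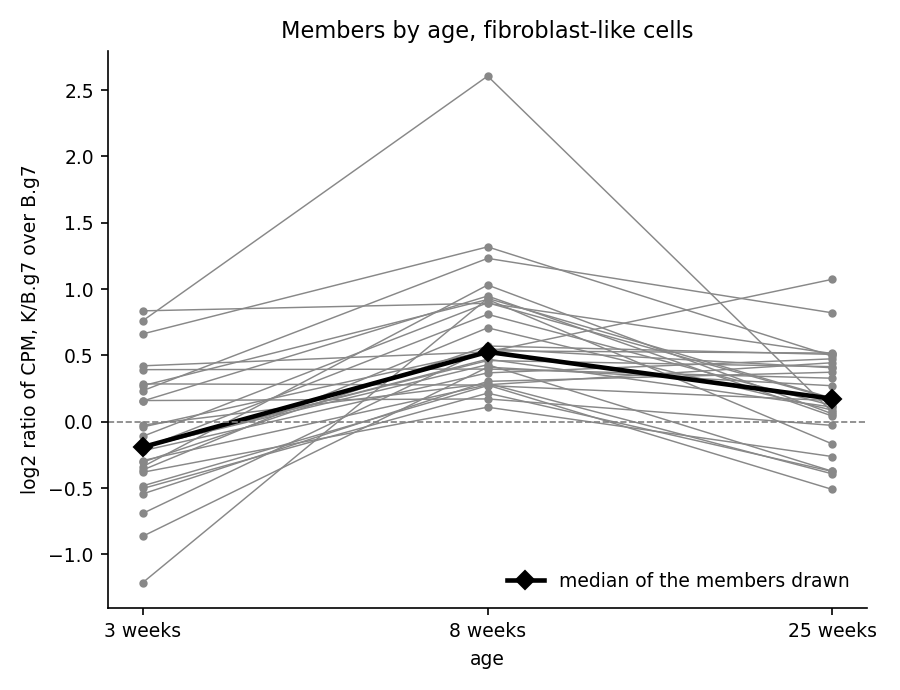
Log2 ratio of the CPM in K/B.g7 over B.g7 at 3, 8 and 25 weeks for the 29 genes with enough UMIs at every age (grey lines), with their median (black); each point compares 1 library with 1 library. The median goes from -0.19 at 3 weeks to 0.53 at 8 weeks and 0.17 at 25 weeks.

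Other measured values moved with the 8-week difference. First, immune transcripts were highest in the fibroblast-like cells of the same library: the sum of 12 immune markers was 22.8, 292 and 33.8 CPM in K/B.g7 (3, 8 and 25 weeks) and 9.78, 39.8 and 32.7 CPM in B.g7. Cd74 gave 240.4 of the 292 CPM. Set against the immune cells of the same library, these markers reached 0.0641% to 1.07% of their immune level in the K/B.g7 fibroblast-like cells and 0.0277% to 0.156% in B.g7, while the 35 summed genes reached 30.1% to 107% and 48.1% to 103%. By single marker in K/B.g7 at 8 weeks, Cd74 was at 2.05% of its immune level, Cd3e at 1.48% and Cd79a at 0.650%. The other markers ran from 0.245% (Lyz2) to 0.545% (Coro1a) there. Ptprc was at 0 in B.g7 at 3 weeks, and no other marker was at 0. Second, the ratio moved with the cells chosen. The 3-week ratio was 1.02 in cells with Xist alone and 0.636 in cells with Y-linked transcripts alone. In cells with Xist alone the summed level was 623, 2953 and 2791 CPM in K/B.g7 and 613, 1719.8 and 1891 CPM in B.g7, and in cells with Y-linked transcripts alone it was 665, 3318 and 1625 CPM in K/B.g7 and 1045, 2623 and 1300.3 CPM in B.g7. The 8-week ratio was 1.72 and 1.26, where B.g7 had only 90 cells. Without the Mmp3 cluster the 8-week ratio was 1.75, against 1.76 with it. The part of cell sex and carried-over RNA in the difference was not tested.

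Fibroblast-like clusters differed more in level than in direction. Of the 8 clusters with at least 20 cells in every library, the one led by Pi16 and Ly6c1 was the highest, with a summed level of 1466, 4303 and 4094 CPM in K/B.g7 and 2315, 3861 and 3981 CPM in B.g7. This rank rests on Ifi27l2a: without that gene it had 447, 1056 and 875 CPM in K/B.g7 and 510.4, 786 and 632 CPM in B.g7, below the cluster led by Has1 and Tnfaip6 in each library, with 727, 1649 and 1001 CPM in K/B.g7 and 722, 1044 and 1018 CPM in B.g7. The cluster led by Fmod, Comp and Chad, genes of cartilage-like matrix, was the lowest in 5 of the 6 libraries, with 295, 1941 and 687 CPM in K/B.g7 and 321, 571 and 464 CPM in B.g7. It also had the highest ratio of K/B.g7 over B.g7 at 8 weeks, 3.40. Over the 8 clusters this ratio ran from 1.10 to 3.40 at 8 weeks, from 0.519 to 1.11 at 3 weeks and from 0.793 to 1.48 at 25 weeks. At 3 weeks 3 of the 8 clusters lay above 1. Without Ifi27l2a 6 of the 8 did, with ratios from 0.701 to 1.38 at 3 weeks, 1.21 to 2.38 at 8 weeks and 0.983 to 1.38 at 25 weeks. The cluster led by Cilp and Col8a1 had 422, 3121 and 2181 CPM in K/B.g7 and 814, 2335 and 2045 CPM in B.g7, and the 8-week K/B.g7 library was the highest in each of the 8 clusters.

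The share of cells with these transcripts followed the same order. After each fibroblast-like cell was thinned to 1000 UMIs, at least 1 UMI of the 35 genes was found in 36.8%, 82.7% and 65.6% of K/B.g7 cells (3, 8 and 25 weeks) and 42.0%, 66.7% and 58.8% of B.g7 cells. At least 3 UMIs were found in 5.47%, 40.2% and 23.5% of K/B.g7 and 9.46%, 21.5% and 20.2% of B.g7 cells. The exact binomial 95% interval of the highest share was 81.7% to 83.6%, which covers counting error only. Without Ifi27l2a, at least 3 UMIs were found in 2.14%, 13.7% and 6.36% of K/B.g7 and 1.65%, 7.22% and 5.53% of B.g7 cells. Mural-like cells were the tested class of lowest summed level when Ifi27l2a is included. They had at least 3 UMIs in 1.08%, 17.05% and 3.28% of K/B.g7 and 1.55%, 11.4% and 9.77% of B.g7 cells. At full depth at least 1 UMI was present in 75.4% to 97.3% of K/B.g7 and 72.0% to 90.9% of B.g7 fibroblast-like cells.

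In endothelial-like cells the summed level was again lowest at 3 and highest at 8 weeks, with fewer calls. Their sum was 1172, 1829 and 1422 CPM in K/B.g7 (3, 8 and 25 weeks) and 889, 1585 and 1527 CPM in B.g7. The order of ages differed between subsets of cells: with Xist alone the sum was 608, 1606 and 1749.7 CPM in K/B.g7 and 598, 1512 and 1652 CPM in B.g7, highest at 25 weeks, and with Y-linked transcripts alone it was 1559.8, 2135 and 1205 CPM in K/B.g7 and 1319.5, 1824 and 1219.5 CPM in B.g7, lowest at 25 weeks. Trim30a was the 1 of 27 tested genes called higher at 8 than at 3 weeks (0.697% of all genes were), with 26.1, 65.7 and 47.1 CPM in K/B.g7 and 18.1, 57.1 and 32.1 CPM in B.g7 and a log2 difference of 1.58 ± 0.31 (adjusted p = 0.0344). In all, 16 genes had an unadjusted p under 0.05 (14.2% of all genes did), among them Parp14 (1.32 ± 0.28, adjusted p = 0.0501), Herc6 (1.47 ± 0.32, adjusted p = 0.059), Oasl2 (1.66 ± 0.37, adjusted p = 0.0639) and Ifi44 (1.84 ± 0.42, adjusted p = 0.0664). Parp14 had 36.9, 94.3 and 54.4 CPM in K/B.g7 and 36.3, 77.1 and 49.9 CPM in B.g7. Herc6 had 20.7, 55.6 and 30.4 CPM in K/B.g7 and 13.6, 33.8 and 16.9 CPM in B.g7. Oasl2 had 9.89, 38.2 and 29.5 CPM in K/B.g7 and 13.6, 29.3 and 20.3 CPM in B.g7. In these 3 genes both 8-week libraries lay above both 3-week libraries. The call for Trim30a depended on the settings: DESeq2 and the fit without the 25-week libraries called 0, and the fit with no filter called 12. From 8 to 25 weeks 0 genes passed, 11 had an unadjusted p under 0.05 (5.85% of all genes did), all lower (0.177% of all genes were called lower and 0.0196% higher), and the smallest p was that of Ifit3 (-1.26 ± 0.35, adjusted p = 0.373). Between genotypes 0 of 27 passed in endothelial-like cells (0% of all genes), 2 had an unadjusted p under 0.05 (4.61% of all genes did; Herc6 and Ifit1), and DESeq2 called 0.

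In mural-like cells Ifi203 was lower in K/B.g7, the 1 of 18 tested genes called between genotypes (0.695% of all genes were called lower and 0.571% higher). It had 9.93, 96.6 and 26.7 CPM in K/B.g7 and 28.4, 148 and 95.3 CPM in B.g7, a log2 difference of -1.35 ± 0.29 (adjusted p = 0.0412), and the K/B.g7 library was below the B.g7 library at each age. The call ended under DESeq2, with no scaling beyond library size, without the age block, without the 3-week libraries, without the 25-week libraries and with Xist cells alone. In macrophage-like cells 0 of 22 genes passed (0.134% of all genes were called higher and 0.0224% lower), DESeq2 called 0, and Oas1a alone had an unadjusted p under 0.05 (5.84% of all genes did), with a log2 difference of 1.16 ± 0.43 (adjusted p = 0.597). Their clusters differed between groups, and the Mmp12 cluster had 128 of its 160 kept cells in the K/B.g7 library of 8 weeks.

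Of the 4 classes set against fibroblast-like cells, macrophage-like cells had the most genes at a higher level. In the same libraries, 22 of 33 genes were higher and 0 lower than in fibroblast-like cells (edgeR, library as a block; 24.8% of all genes were higher and 33.7% lower). The 33 tested across classes include Mx1 and leave out Cmpk2 and Oas3, which did not pass the filter there. All 4 signalling genes, 6 of 7 sensors and 6 of 7 other antiviral effectors were among the 22. Oas1a had 19.0, 41.3 and 81.0 CPM in K/B.g7 and 9.46, 27.7 and 15.1 CPM in B.g7 in macrophage-like cells, a log2 difference from fibroblast-like cells of 5.58 ± 0.53 (adjusted p = 9.84e-10). Zbp1 had 19.0, 127 and 58.5 CPM in K/B.g7 and 37.8, 124 and 15.1 CPM in B.g7 and differed by 3.46 ± 0.33 (adjusted p = 1.02e-09). Every macrophage-like value of both genes lay above the fibroblast-like value of its library. Rsad2 had 0, 37.6 and 85.5 CPM in K/B.g7 and 0, 81.2 and 19.4 CPM in B.g7 and differed by 4.68 ± 0.47. Trim30a had 85.6, 72.1 and 130.4 CPM in K/B.g7 and 37.8, 77.8 and 62.5 CPM in B.g7 and differed by 2.35 ± 0.26. Parp14 had 47.6, 72.1 and 85.5 CPM in K/B.g7 and 37.8, 51.9 and 45.3 CPM in B.g7 and differed by 1.90 ± 0.20. Rsad2 was thus at 0 in both 3-week libraries, where the class was small, and Trim30a and Parp14 were above their fibroblast-like level in each library. Irf7 had 57.1, 90.6 and 98.9 CPM in K/B.g7 and 9.46, 221 and 25.9 CPM in B.g7 and differed by 2.54 ± 0.34. Its B.g7 value at 3 weeks was 1 UMI. Isg15 reached 328 CPM in the B.g7 library of 8 weeks. The macrophage-like sums rest on 38 to 291 cells per library.

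In endothelial-like cells 9 genes were higher than in fibroblast-like cells and 7 lower (27.2% and 29.2% of all genes). Parp14 (1.61 ± 0.16), Ifi44 (3.97 ± 0.42), Bst2 (1.13 ± 0.20), Stat2 (0.75 ± 0.15) and Trim30a (1.10 ± 0.22) were higher on the log2 scale. Ifi44 had 12.6, 30.9 and 21.2 CPM in K/B.g7 and 6.05, 31.1 and 11.0 CPM in B.g7 there. Ifi204 (-3.19 ± 0.32), Isg20 (-1.62 ± 0.25), Ifi203 (-1.19 ± 0.35), Ifi27l2a (-1.44 ± 0.47) and Mndal (-1.09 ± 0.38) were lower. The fitted differences of the PYHIN sensors Ifi204, Ifi203 and Mndal were thus all below 0. In B.g7 at 3 weeks, however, Mndal had 21.2 CPM against 10.9 in fibroblast-like cells, and Ifi203 had 18.1 against 17.6. Ifi204 had 0.899, 20.8 and 5.07 CPM in K/B.g7 and 0, 5.78 and 4.23 CPM in B.g7 in endothelial-like cells, below the fibroblast-like value in each library. Isg20 had 8.09, 15.2 and 6.46 CPM in K/B.g7 and 6.05, 15.5 and 11.8 CPM in B.g7. Bst2 had 453, 323 and 227 CPM in K/B.g7 and 174, 541 and 209.8 CPM in B.g7. Without scaling beyond library size the split was 12 higher and 4 lower, and the median over all genes moved from -0.02 to 0.22.

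Mural-like cells had 1 gene higher and 11 lower (18.5% and 19.4% of all genes). The higher gene was Oas2 (2.61 ± 0.77, adjusted p = 0.00784). It had few molecules in mural-like cells: 0, 3 and 1 UMIs in K/B.g7 (3, 8 and 25 weeks) and 0, 4 and 5 in B.g7. Ifi204 (-3.66 ± 0.39), Ifi27l2a (-3.52 ± 0.53), Isg20 (-1.92 ± 0.30), Trim30a (-1.20 ± 0.32) and Ifit3 (-1.58 ± 0.43) led the lower genes. The Oas2 call ended without the K/B.g7 library of 3 weeks or the B.g7 library of 8 or of 25 weeks, and without the K/B.g7 library of 25 weeks 5 genes were lower. Ifi27l2a had 3.48, 429 and 92.8 CPM in K/B.g7 and 8.11, 49.5 and 83.5 CPM in B.g7 in mural-like cells. Ifi204 had 0.497, 12.5 and 3.54 CPM in K/B.g7 and 0, 8.24 and 3.92 CPM in B.g7 there. Both genes were below their fibroblast-like value in each library. T cell-like cells, with at least 20 cells in the 8- and 25-week libraries only, had 5 genes higher and 5 lower (25% and 33.7% of all genes). Zbp1 (2.23 ± 0.40), Mndal (1.80 ± 0.40), Samd9l, Ifi203 and Rsad2 were higher, and Ifi204 (-3.57 ± 0.55), Ifih1 (-3.29 ± 0.62), Oasl2, Ifit3 and Ifit3b were lower. Without the K/B.g7 library of 8 weeks 2 genes were higher. Ifi204 and Mndal thus stood on opposite sides in T cell-like cells: Mndal had 287 and 192 CPM in K/B.g7 and 367 and 127 CPM in B.g7 at 8 and 25 weeks, and Ifi204 had 7.55 and 16.5 CPM in K/B.g7 and no UMI in B.g7.

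**Figure D4:**
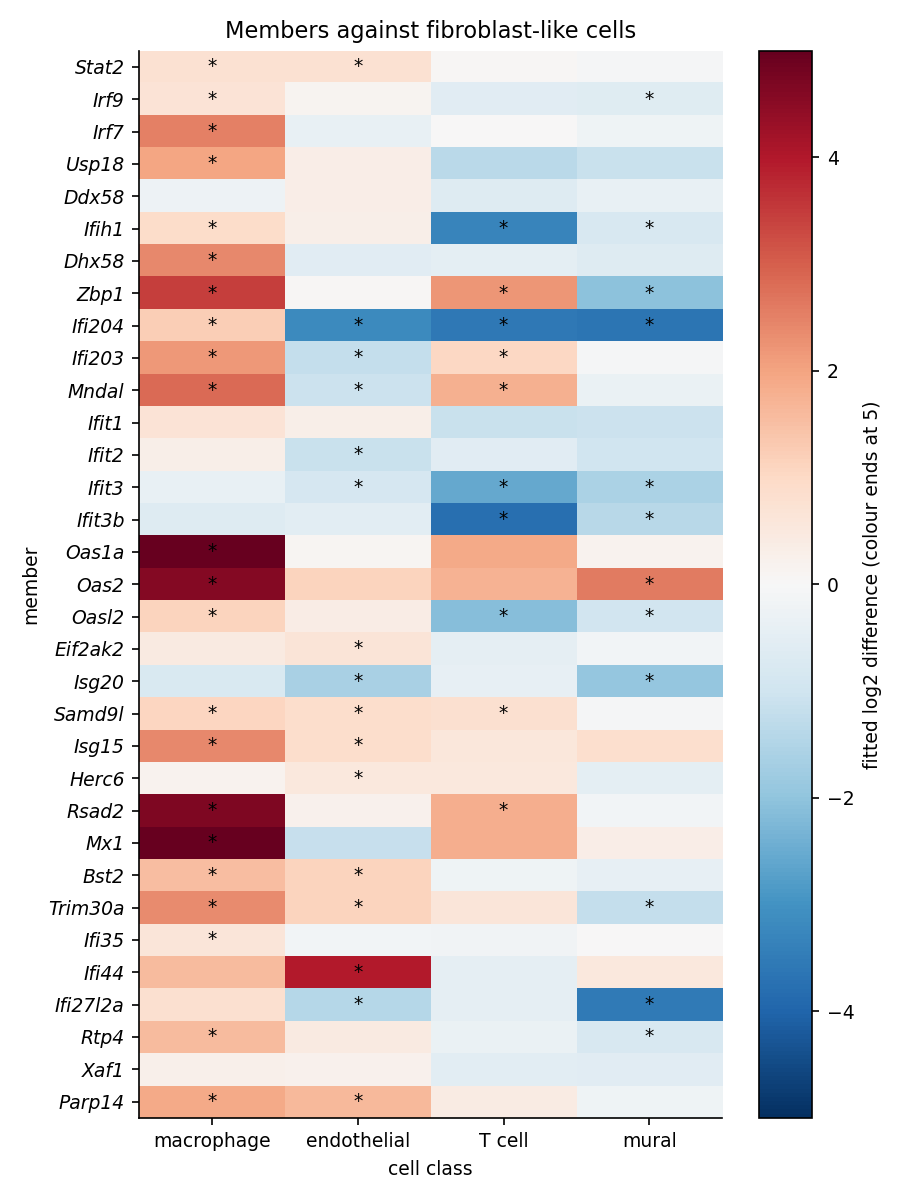
Fitted log2 difference of each of the 33 tested genes (rows, ordered by role) in macrophage-like, endothelial-like, T cell-like and mural-like cells against fibroblast-like cells, with red for higher, blue for lower and a star for an adjusted p under 0.05. The macrophage-like column holds 22 stars, all on red, and Ifi204 is blue with a star in the other 3 columns.

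The summed level was also taken in the smaller classes. Lymphatic endothelial-like cells had 1638, 2849 and 2239 CPM in K/B.g7 (3, 8 and 25 weeks) and 1168, 3285 and 2654 CPM in B.g7. Mesothelial-like cells, with under 20 cells in B.g7 at 3 weeks, had 3528, 3179 and 2375 CPM in K/B.g7 and 2055 and 2342 CPM in B.g7 at 8 and 25 weeks. Lymphatic endothelial-like cells were highest at 8 weeks in both genotypes, and mesothelial-like cells were highest at 3 weeks in K/B.g7. Glial-like cells had 1004, 2331 and 1747 CPM in K/B.g7 (3, 8 and 25 weeks) and 934, 1844 and 1302 CPM in B.g7. Of the tested classes, macrophage-like cells had 2050.4, 3038 and 4713 CPM in K/B.g7 (3, 8 and 25 weeks) and 1722, 4465 and 2833 CPM in B.g7, and mural-like cells 279, 1407 and 453 CPM in K/B.g7 (3, 8 and 25 weeks) and 296, 828 and 787 CPM in B.g7. The sums of the mural-like class were below those of fibroblast-like cells in each library. Without Ifi27l2a this held in all libraries but B.g7 at 25 weeks, where mural-like cells had 703 CPM and fibroblast-like cells 659 CPM.

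**Figure D5:**
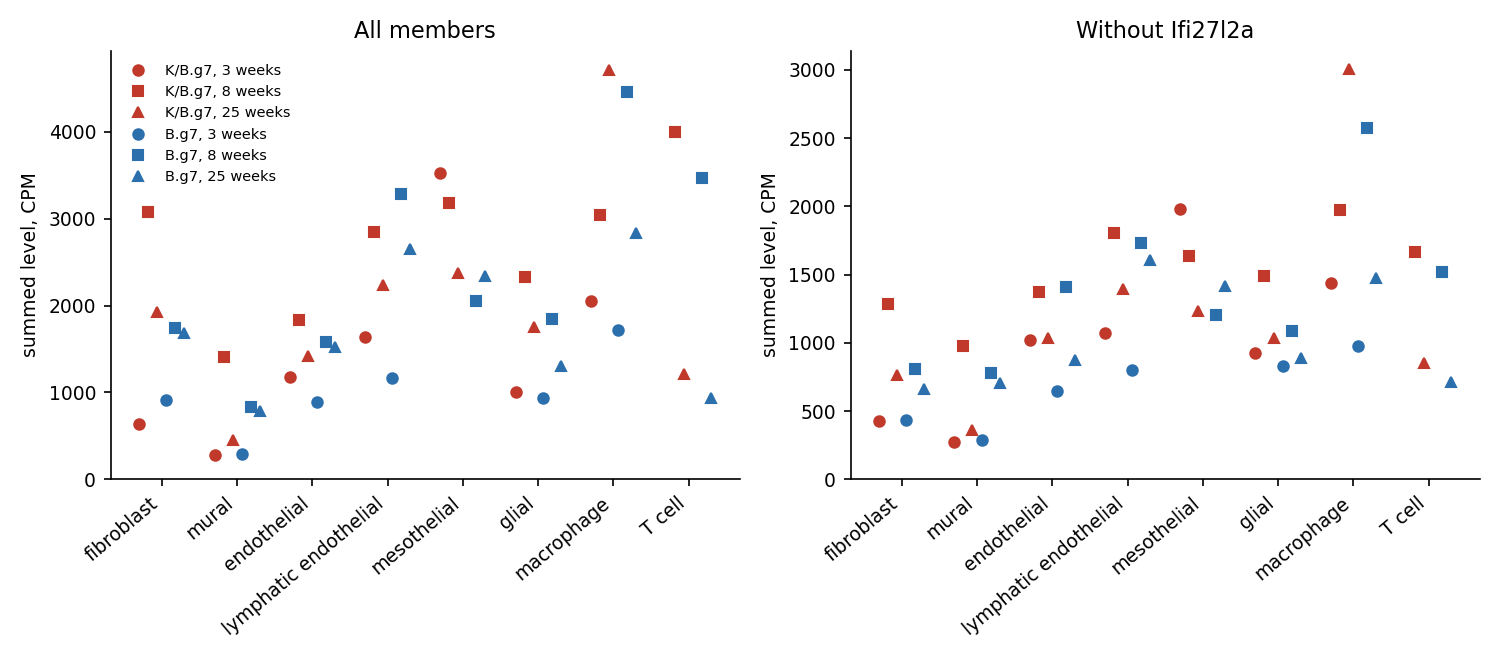
Summed CPM of the 35 genes in 8 cell classes (left) and without Ifi27l2a (right), with 1 point per library, colour for the genotype and marker shape for the age. Fibroblast-like cells span 636 to 3073 CPM on the left and 429 to 1283 CPM on the right.

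Other genes of the pathway were tested in the same fits. Transcripts of the type I ligands were few. Ifnk, a type I interferon gene, had 62 UMIs in all cells, 32 of them in fibroblast-like cells. Ifnb1 had 14 UMIs in all cells, 13 of them in macrophage-like cells, and Ifna1, Ifna2, Ifna4 and Ifna5 had 0. Ifng, the gene of interferon-gamma, had 974 UMIs, 745 of them in cells like natural killer or innate lymphoid cells and 100 in T cell-like cells. In fibroblast-like cells between 3 and 8 weeks, 0 of 5 receptor genes passed; Ifnar1 had 35.7, 33.1 and 35.6 CPM in K/B.g7 and 38.0, 25.9 and 28.5 CPM in B.g7, and Ifnar2 96.1, 146 and 112 CPM in K/B.g7 and 77.6, 131 and 111 CPM in B.g7. Of 10 upstream sensing genes 1 rose, Samhd1 (1.14 ± 0.26, adjusted p = 0.0439), and of 4 negative regulators 0 passed. Of 30 further interferon-stimulated genes 16 rose and 0 fell (3.14% and 2.26% of all genes), led by Slfn8 (2.88 ± 0.35), Dtx3l (1.74 ± 0.24) and Sp100 (2.11 ± 0.30).

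Genes known mainly as targets of interferon-gamma moved in the same direction. In fibroblast-like cells 10 of 14 rose from 3 to 8 weeks and 0 fell (3.14% and 2.26% of all genes), with a median log2 difference of 2.23 against 0.01 over all genes. Cxcl9, a chemokine gene, had 0.249, 74.9 and 0.170 CPM in K/B.g7 and 0.554, 17.8 and 0.484 CPM in B.g7, and Gbp4, a guanylate-binding protein gene, had 0.0995, 19.0 and 0.510 CPM in K/B.g7 and 0, 5.29 and 0.484 CPM in B.g7; both were near 0 at 3 weeks and again at 25 weeks. From 8 to 25 weeks these were the 2 of 14 that fell, with differences of -6.95 ± 0.71 (adjusted p = 0.0133) and -4.44 ± 0.46 (adjusted p = 0.0144) on the log2 scale. In endothelial-like cells 11 of 13 rose from 3 to 8 weeks (0.697% of all genes did), and 4 of 13 fell from 8 to 25 weeks (0.177% of all genes did): Cxcl9, Cxcl10, Igtp and Gbp2. No list described here had a gene called between genotypes in fibroblast-like, endothelial-like or macrophage-like cells. In mural-like cells Slfn5 was lower in K/B.g7 (-2.14 ± 0.36, adjusted p = 0.013) and Iigp1 higher (1.97 ± 0.37, adjusted p = 0.0193).

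The promoter letters can be set beside the age difference. Of the 14 tested genes with an ISRE core in the window, 11 rose in fibroblast-like cells from 3 to 8 weeks; the log2 differences of the 14 ran from -0.32 (Eif2ak2) to 5.23 (Oas1a), with a median of 1.80. Of the 11 tested genes with a window and no match, 7 rose, and the differences of the 11 ran from 0.17 (Ifi35) to 5.61 (Ifi44), with a median of 0.95. The ranges overlapped. Ifi44 and Oas1a, the upper ends of the 2 ranges, had 3 and 2 UMIs at 3 weeks, and their counting intervals overlap widely.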

How the data were processed

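Single cells of mouse mitral valves were measured in 6 libraries, 1 per genotype (K/B.g7, B.g7) and age (3, 8, 25 weeks). The deposited matrices hold raw UMI counts per gene and barcode, made with Cell Ranger 3.1.0 against mm10 per the submitters' processing notes; what was filtered before deposit is not given in the sources used here. Of 58351 barcodes, 53323 had at least 500 UMIs and 300 genes, at most 10% mitochondrial and at most 10% hemoglobin UMIs; the hemoglobin limit was added after the data were seen. Predicted doublets (5636, the highest scores at 0.8% per 1000 barcodes, since the automatic threshold marked only 43) were removed. Cells were clustered with scanpy 1.11.5 and leidenalg 0.10.2 (2000 variable genes, 30 components, 15 neighbours, resolution 1.0) without the interferon genes and hemoglobin genes, and clusters were named from marker lists, so the classes are rebuilt and may differ from the study's own.

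Counts were summed per class and library (at least 20 cells) and tested with edgeR 4.0.16 in R 4.3.3 (TMM scaling, filterByExpr, quasi-likelihood, Benjamini-Hochberg over all genes tested, threshold 0.05). Age was a block in the genotype comparison, genotype in the age comparison (2 residual degrees of freedom, shared by these comparisons) and library in the comparison of classes. Libraries of one age carry the same replicate number in the labels and share the age; the correlation of their deviations from the genotype mean was 0.587 (3 weeks), 0.474 (8 weeks) and 0.205 (25 weeks) for fibroblast-like sums and 0.0726 to 0.713 in the other tested classes. DESeq2 1.42.0, other scalings and filters, left-out ages and subsets of cells were alternatives. The share of all genes called is given for the main fits and not for these alternatives. The genotype tests were checked on simulated data, where false calls in fibroblast-like sums came above the nominal rate, so single calls near the threshold are less certain than their adjusted p. Ratios between single libraries needed at least 20 UMIs, and exact intervals (95%) cover counting error only.

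The members and the gene lists were chosen with earlier results of these data known. Values are named for the 12 members of highest mean level in fibroblast-like cells and for up to 5 members per direction of smallest p in a comparison; other members named were chosen after their values were seen. Mx2 was not analysed here. The list of kinases and transcription factors of the pathway is not reported here. Promoter sequences are those of RefSeq (GRCm38.p6).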

Additional observations from a re-analysis of the deposited data

Results flagged for a closer look

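The ratio of the summed level of the 35 genes in K/B.g7 over B.g7 lay on both sides of 1 across ages in all 4 cell classes compared between genotypes. Each ratio sets 1 library against 1 library, so that the change of direction was not tested. In fibroblast-like cells the ratio was 0.696 at 3 weeks, 1.76 at 8 weeks and 1.14 at 25 weeks. Endothelial-like cells had 1.32, 1.15 and 0.932 at the same ages. The 25-week value was 1.06 in cells with Xist alone, 1.05 with predicted doublets kept and 1.18 without Ifi27l2a, and the 8-week value without Ifi27l2a was 0.974. Mural-like cells had 0.943, 1.70 and 0.575, and 1.14 at 25 weeks in cells with Xist alone. In macrophage-like cells the ratio was 1.19 at 3 weeks, 0.681 at 8 weeks and 1.66 at 25 weeks. At 8 weeks it was 1.58 in macrophage-like cells with Xist alone and 0.396 in those with Y-linked transcripts alone, so its direction depended on the cells chosen. The 3-week ratio in fibroblast-like cells was 1.02 with Xist alone.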

How the results depend on the processing

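For the genes named in the tested comparisons, 483 of the values recomputed under the alternatives kept their direction and their side of the threshold, 27 kept the direction and lost the call, 7 gained it and 4 reversed. The 4 were genotype differences in fibroblast-like cells: Isg15 in cluster 7 alone (-0.18) and cluster 9 alone (-0.14), Ifit1 in cluster 7 alone (-0.059) and Rsad2 in cells with Y-linked transcripts alone (-0.064). The cause was not tested for these or for the counts that follow. Those counts stand without the share of all genes called under the same setting.

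In fibroblast-like cells the 23 genes called higher at 8 than at 3 weeks became 24 with DESeq2, 18 with no scaling beyond library size, 28 with no filter and 21 and 19 in cells with Xist or Y-linked transcripts alone; the clusters alone gave 4 (cluster 0), 10 (cluster 3), 15 (cluster 7), 6 (cluster 9) and 2 (cluster 10). Of the genes called lower from 8 to 25 weeks, 0 became 3 with DESeq2, 7 with no filter, 1 with cells of at least 1000 UMIs, 6 in cells with Y-linked transcripts alone and 1 each in clusters 1 and 2 alone. Between genotypes 0 higher became 4 with no filter and 1 each in clusters 0, 1, 2 and 3 alone.

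In endothelial-like cells the 1 gene called higher at 8 weeks became 0 with DESeq2, with no scaling, without the 25-week libraries and in cells with Y-linked transcripts alone, 12 with no filter, 5 with predicted doublets kept, 2 with cells of at least 1000 UMIs and 11 in cells with Xist alone. From 8 to 25 weeks no filter gave 2 lower and cells with Xist alone 1 higher. In mural-like cells the 1 gene called lower in K/B.g7 became 0 with DESeq2, no scaling, cells with Xist alone and no replicate block (genotype alone), 2 with no filter (which also gave 1 higher) and with predicted doublets kept, and 0 to 2 when an age was left out. Removing the replicate block changed no other count of calls by more than 1.5 times. Mural-like cells with Y-linked transcripts alone could not be fitted.

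Against fibroblast-like cells, genes lower in endothelial-like cells numbered 4 with DESeq2 and 4 with no scaling. In mural-like cells DESeq2 gave 2 higher and 7 lower, and leaving out a library 0 to 1 higher and 5 to 13 lower. In macrophage-like cells no filter and no scaling gave 1 lower each, and leaving out a library 0 to 1. In T cell-like cells 8 were higher with cells of at least 1000 UMIs and 2 to 6 when a library was left out.

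The share of fibroblast-like cells with at least 1 UMI, thinned to 2000 UMIs, was 55.9%, 94.8% and 82.6% in K/B.g7 (3, 8 and 25 weeks) and 60.8%, 83.1% and 74.9% in B.g7; with predicted doublets kept it was 67.0% in K/B.g7 at 25 weeks and 64.7% and 57.6% in B.g7 at 8 and 25 weeks. The summed ratio of K/B.g7 over B.g7 in fibroblast-like cells at 3, 8 and 25 weeks was 1.02, 1.72 and 1.48 in cells with Xist alone, 0.636, 1.26 and 1.25 in cells with Y-linked transcripts alone and 0.987, 1.59 and 1.16 without Ifi27l2a; with predicted doublets kept it was 1.78 at 8 and 1.16 at 25 weeks. Depth limits the low genes: Ifi44, Oas1a, Mx1 and Oas2 had at most 5 UMIs at 3 weeks in fibroblast-like cells, and macrophage-like sums rest on few cells. The subsets by cluster, Xist or Y-linked transcripts in the age comparisons, the sum without Ifi27l2a and the hemoglobin limit were chosen after the data were seen.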
